A study of Oryza sativa Japonica Group with 3 samples.

Results

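The β-amylase family of rice was followed through 3 stages of germination in seeds of Jiucaiqing, a japonica landrace. The family was taken as 10 listed loci, given here by their IDs, out of 55986 loci in the deposited tables. Each of the 10 has 1 listed isoform, so the value of a locus is the value of that single transcript. The stages were dry seed (0 h), imbibed seed (24 h) and germinated seed (48 h); imbibition was in distilled water at 30 °C. Each stage is 1 library of poly(A)-selected RNA from whole seeds, in which 3 biological replicates were combined before sequencing. There is therefore no spread between replicates: no SD or p-value is given, and each difference is one between single libraries. The stage of the seed and anything particular to 1 library's preparation cannot be told apart. In whole seeds, fewer cells of a type and less RNA per cell cannot be told apart either. Neither the deposited tables nor the reference table pairs any of the 10 IDs with a gene name, so the family label was not checked against an annotation, and no marker check of the tissue was made.

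β-Amylases remove maltose units one after another from the non-reducing ends of starch chains. In germinating cereal grains they act beside α-amylases, debranching enzymes and α-glucosidases in the breakdown of endosperm starch. In barley and wheat much of the grain's β-amylase is stored during grain filling, whereas in rice it is largely made anew after imbibition. Plant β-amylase families also hold plastid enzymes that degrade transient starch in leaves. In Arabidopsis some family members have little or no catalytic activity, and some carry a DNA-binding domain and act in the nucleus. Which of the 10 loci holds which of these roles is not annotated in the sources used here.

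The family's transcripts passed from one dominant locus to another. Values are FPKM, fragments scaled by transcript length and library total, so levels can be compared between loci. LOC_Os03g04770, on chromosome 3, was at 405, 171 and 19.4 FPKM at 0, 24 and 48 h. LOC_Os07g35940, on chromosome 7, was at 1.16, 23.4 and 328 FPKM at 0, 24 and 48 h. Until 24 h the first was the highest member, and at 48 h it was the second. In the dry seed LOC_Os03g04770 stood 18.9 times above the next member, LOC_Os03g22790, and at 24 h 5.16 times above the same locus. At 48 h LOC_Os07g35940 stood 16.9 times above the next member, which was then LOC_Os03g04770.

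**Figure D1:**
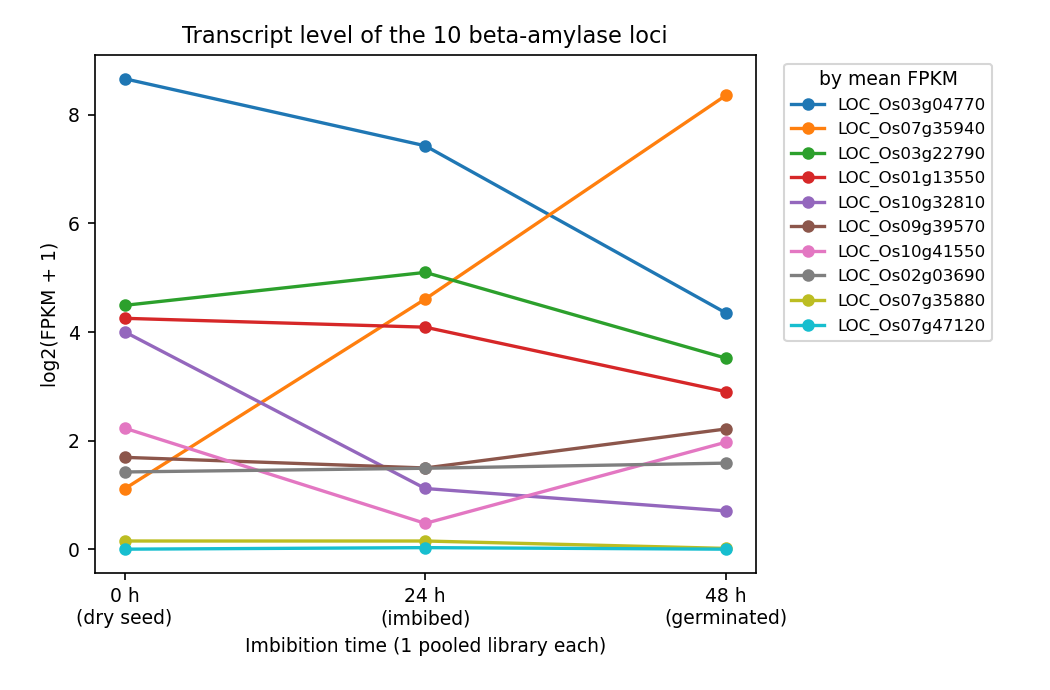
Level of each of the 10 β-amylase loci, as log2(FPKM + 1), at 0, 24 and 48 h of imbibition; each point is 1 pooled library. The line of LOC_Os03g04770 runs down across the 3 stages (405, 171 and 19.4 FPKM) while that of LOC_Os07g35940 runs up (1.16, 23.4 and 328 FPKM), and the lines cross between 24 and 48 h.

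Among all 55986 loci, LOC_Os07g35940 ranked 15669th, 3397th and 144th by FPKM at 0, 24 and 48 h. LOC_Os03g04770 ranked 251st, 379th and 3424th. By rank within a library, which no scaling can move, the one belonged to the most abundant transcripts of the germinated seed and the other to those of the dry seed.

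The sum over the 10 loci was lowest at 24 h, with 469, 249 and 373 FPKM at 0, 24 and 48 h. LOC_Os03g04770 supplied 86.5%, 68.7% and 5.20% of this sum at 0, 24 and 48 h. LOC_Os07g35940 supplied 0.248%, 9.37% and 87.8% over the same times. These 2 loci together held 86.7%, 78.1% and 93.0% of the family's sum at 0, 24 and 48 h. The other 8 loci together were at 62.3, 54.6 and 26.1 FPKM at 0, 24 and 48 h. The 24 h library is the one in which the family was least concentrated in a single locus, with LOC_Os03g22790 at 13.3% and LOC_Os01g13550 at 6.42% of the sum beside both dominant loci. Shares within a library do not depend on how libraries are scaled against each other.

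**Figure D2:**
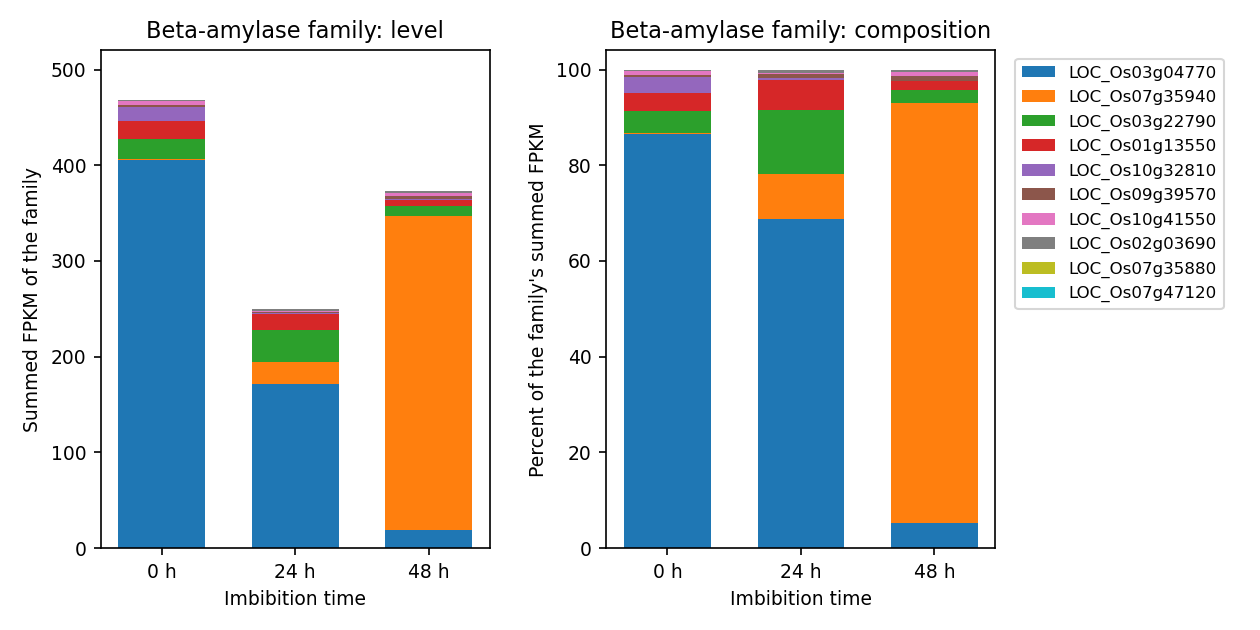
Summed FPKM of the 10 β-amylase loci (left) and the percent of that sum in each locus (right) at 0, 24 and 48 h; each bar is 1 pooled library and each colour 1 locus. LOC_Os03g04770 makes up 86.5% of the bar at 0 h and LOC_Os07g35940 87.8% of the bar at 48 h.

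Between the germinated and the dry seed, the direction of the family as a whole depended on the scaling. The summed FPKM at 48 h was 0.796 times that at 0 h in the values as deposited. The sum of FPKM over all loci also differed between libraries, with 881252, 580571 and 535327 at 0, 24 and 48 h. Set against those sums, the family made up 0.0532%, 0.0430% and 0.0697%. On this relative scale the family at 48 h was 1.31 times its level at 0 h, the opposite direction. The median of single loci was higher at 48 h on that scale too, as given below. At 24 h the family was below 0 h on both scales, at 0.532 times the dry-seed FPKM and 0.808 times the dry-seed share. At 48 h it was above 24 h on both, by 1.50 and 1.62 times.

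Differences of single loci were taken on log2(FPKM + 1), and a locus that reached 1 FPKM in any library was called higher or lower when it differed at least 2-fold on that scale. Of the 10 β-amylase loci, 8 passed this filter, among 20915 loci in all. These are called the loci tested below, although single libraries allow no statistical test, and the 3 comparisons share libraries. The median difference of all 20915 loci was 0.06 for 24 h minus 0 h, 0.02 for 48 h minus 24 h and 0.18 for 48 h minus 0 h. Rescaling each library to the same sum moved these medians to 0.45, 0.14 and 0.75, so the directions of the members below were also read on that scale. Median-of-ratios factors gave 0.05, 0.10 and 0.25. For 48 h over 0 h, the family's summed FPKM had a log2 ratio of 0.39 at the same sum, below the median of 0.75 there. With median-of-ratios factors that ratio was -0.25, the direction of the deposited values.

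During the first day in water, 1 β-amylase locus was called higher and 3 lower at 24 h than at 0 h, while 17.7% of all loci tested were higher and 15.4% lower, 33.1% in either direction. The median of all 10 members, tested or not, was -0.08. LOC_Os07g35940 was the locus called higher, at 23.4 FPKM at 24 h against 1.16 FPKM at 0 h. Its log2 difference of 3.50 ranked 270th from the top among all loci tested. LOC_Os10g32810 showed the largest difference downward within the family, at 1.17 FPKM at 24 h against 15.1 FPKM at 0 h, a log2 difference of -2.89. LOC_Os10g41550 was at 0.39 FPKM at 24 h against 3.69 FPKM at 0 h, a log2 difference of -1.75. LOC_Os03g04770 was nearest to the limit of the rule among the called loci, with a log2 difference of -1.24 that became -0.64 with libraries rescaled to the same sum, no longer past 2-fold. In FPKM as deposited, this locus nonetheless differed by -234 FPKM at 24 h. That was more than the net difference of the family's sum, which went from 469 to 249 FPKM.

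The other 4 tested loci did not pass 2-fold over the first day. LOC_Os03g22790 was the nearest outside the limit, at 33.3 FPKM at 24 h against 21.5 FPKM at 0 h, a log2 difference of 0.61. Rescaled to the same sum it was past the limit, with 1.18. On that scale 2 members were therefore higher and 2 lower, while 28.3% of all loci tested were higher and 8.10% lower. LOC_Os01g13550 was at 16.0 FPKM at 24 h against 18.1 FPKM at 0 h. LOC_Os09g39570 was at 1.82 FPKM at 24 h against 2.23 FPKM at 0 h. Both stood slightly lower as deposited and slightly higher when rescaled to the same sum, so neither has a stable direction over this step.

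Between the imbibed and the germinated seed, 2 β-amylase loci were called higher and 3 lower at 48 h than at 24 h, while 13.8% of all loci tested were higher and 10.9% lower. In either direction 5 of the 8 tested members passed 2-fold, beside 24.7% of all loci tested. The median of all 10 members, tested or not, was -0.08. This includes the 2 members not tested, at -0.14 and -0.03. The middle values of the 8 tested members were -0.41 and 0.09. LOC_Os07g35940 was at 328 FPKM at 48 h against 23.4 FPKM at 24 h, a log2 difference of 3.75 that ranked 84th from the top. In FPKM this second step was far the larger for this locus, with 304 FPKM added against 22.2 FPKM over the first day. On the log2 scale, which step was the larger depended on the constant added: the first and the second step were 4.22 and 3.80 with 0.1 FPKM added, and 2.20 and 3.55 with 5 FPKM added.

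LOC_Os03g04770 was at 19.4 FPKM at 48 h against 171 FPKM at 24 h, a log2 difference of -3.08 that ranked 125th from the bottom. For this locus the difference on the log2 scale lay mostly in the second step, while in FPKM as deposited the first step was the larger, with -234 FPKM against -152 FPKM. Rescaled to the same sum, the second step was the larger in FPKM too, with -109 FPKM over the first day and -172 FPKM over the second. LOC_Os03g22790 was at 10.5 FPKM at 48 h against 33.3 FPKM at 24 h, a log2 difference of -1.58. LOC_Os01g13550 was at 6.47 FPKM at 48 h against 16.0 FPKM at 24 h, a log2 difference of -1.19, the nearest inside the limit. Its call was lost when libraries were rescaled to the same sum without LOC_Os09g00999, the most abundant locus in all 3 libraries, which gave -0.95, and with 5 FPKM added in place of 1 FPKM, which gave -0.87.

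The second member called higher at 48 h was LOC_Os10g41550, at 2.92 FPKM at 48 h against 0.39 FPKM at 24 h, a log2 difference of 1.50. It thus stood low at 24 h only, with 3.69 FPKM in the dry seed. Its values are low, and the number of reads behind 0.39 FPKM is not known. With 5 FPKM added in place of 1 FPKM, it passed 2-fold at neither step, with -0.69 for 24 h minus 0 h and 0.56 for 48 h minus 24 h. LOC_Os09g39570 was nearest outside the limit at this step, at 3.64 FPKM at 48 h against 1.82 FPKM at 24 h. Its plain ratio was 2.0, but its log2 difference after adding 1 FPKM was 0.72.

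**Figure D3:**
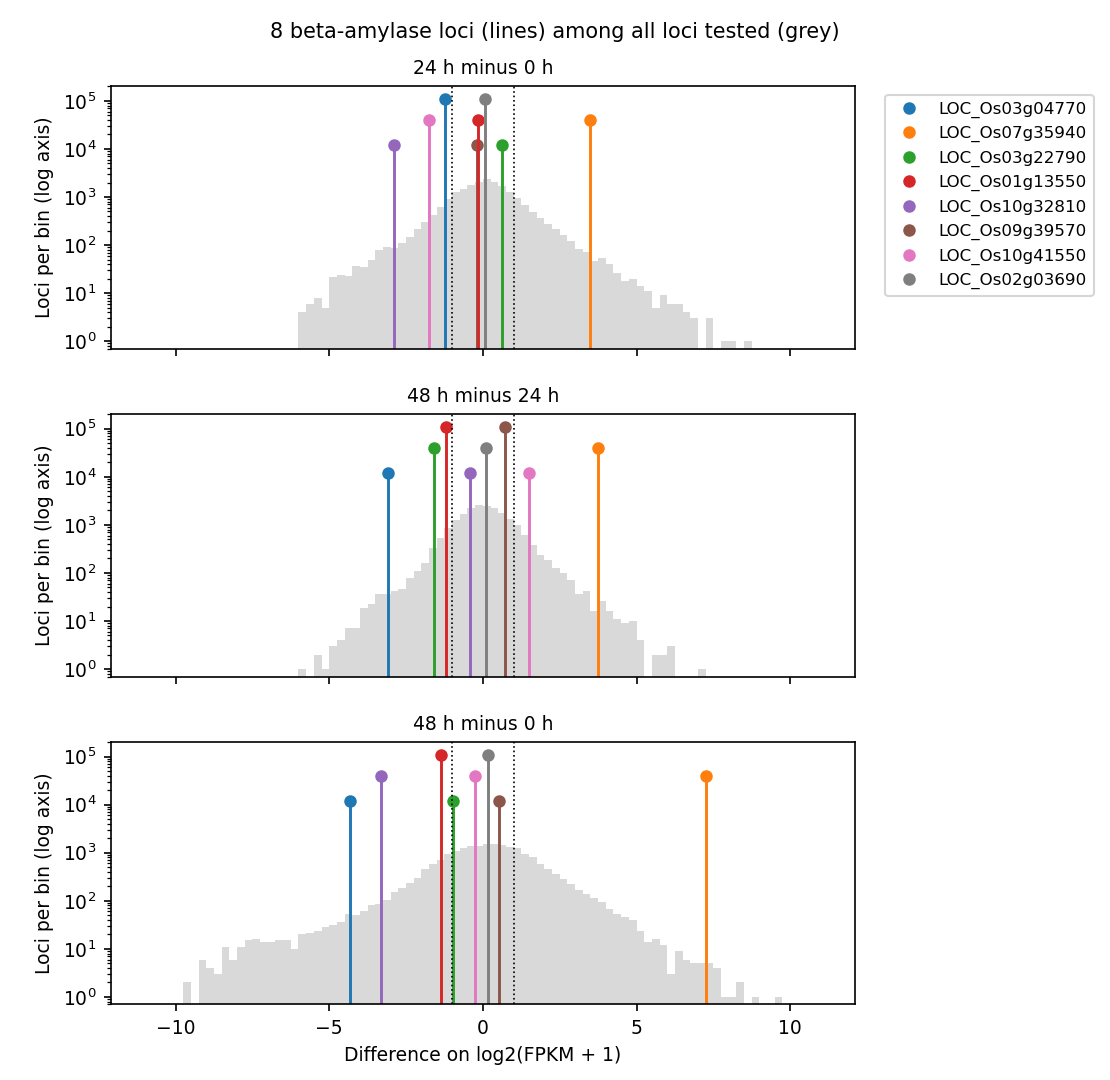
Difference on log2(FPKM + 1) of the 8 tested β-amylase loci (coloured lines with a dot, whose height has no meaning) over the distribution of all 20915 loci tested (grey, loci per bin of the difference on a log axis), for 24 h minus 0 h, 48 h minus 24 h and 48 h minus 0 h. Dotted lines mark 2-fold; LOC_Os07g35940 lies at 3.50, 3.75 and 7.25 and LOC_Os03g04770 at -1.24, -3.08 and -4.31.

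Across the whole course, 1 β-amylase locus was called higher and 3 lower at 48 h than at 0 h, while 27.5% of all loci tested were higher and 20.4% lower. In either direction 4 of the 8 tested members passed 2-fold, beside 47.9% of all loci tested, a share near the background. The median of all 10 members, tested or not, was -0.20, and the middle values of the 8 tested members were -0.97 and -0.26. The largest difference within the family was upward. LOC_Os07g35940 was at 328 FPKM at 48 h against 1.16 FPKM at 0 h, a log2 difference of 7.25 that ranked 16th from the top among 20915 loci. The plain ratio of its FPKM was 282, a figure that rests on the low dry-seed value.

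At the other end, LOC_Os03g04770 was at 19.4 FPKM at 48 h against 405 FPKM at 0 h, a log2 difference of -4.31 that ranked 342nd from the bottom. Its plain FPKM was 20.9 times higher at 0 h. LOC_Os10g32810 was at 0.63 FPKM at 48 h against 15.1 FPKM at 0 h, a log2 difference of -3.30, most of which was present by 24 h. LOC_Os07g35940, LOC_Os03g04770 and LOC_Os10g32810 kept their calls for 48 h against 0 h under each of the 3 rescalings. LOC_Os01g13550, at 6.47 FPKM at 48 h against 18.1 FPKM at 0 h, was also called lower with a log2 difference of -1.35, but rescaled to the same sum it was at -0.69 and not past 2-fold. LOC_Os03g22790 was just outside the limit with -0.97. With 0.1 FPKM added in place of 1 FPKM it was past the limit, at -1.03. Rescaled to the same sum it was at -0.30, and at -0.07 without LOC_Os09g00999. On the same-sum scale LOC_Os09g39570 passed the limit instead, with 1.04, so that 2 members were higher and 2 lower, beside 41.4% and 11.7% of all loci tested.

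**Figure D4:**
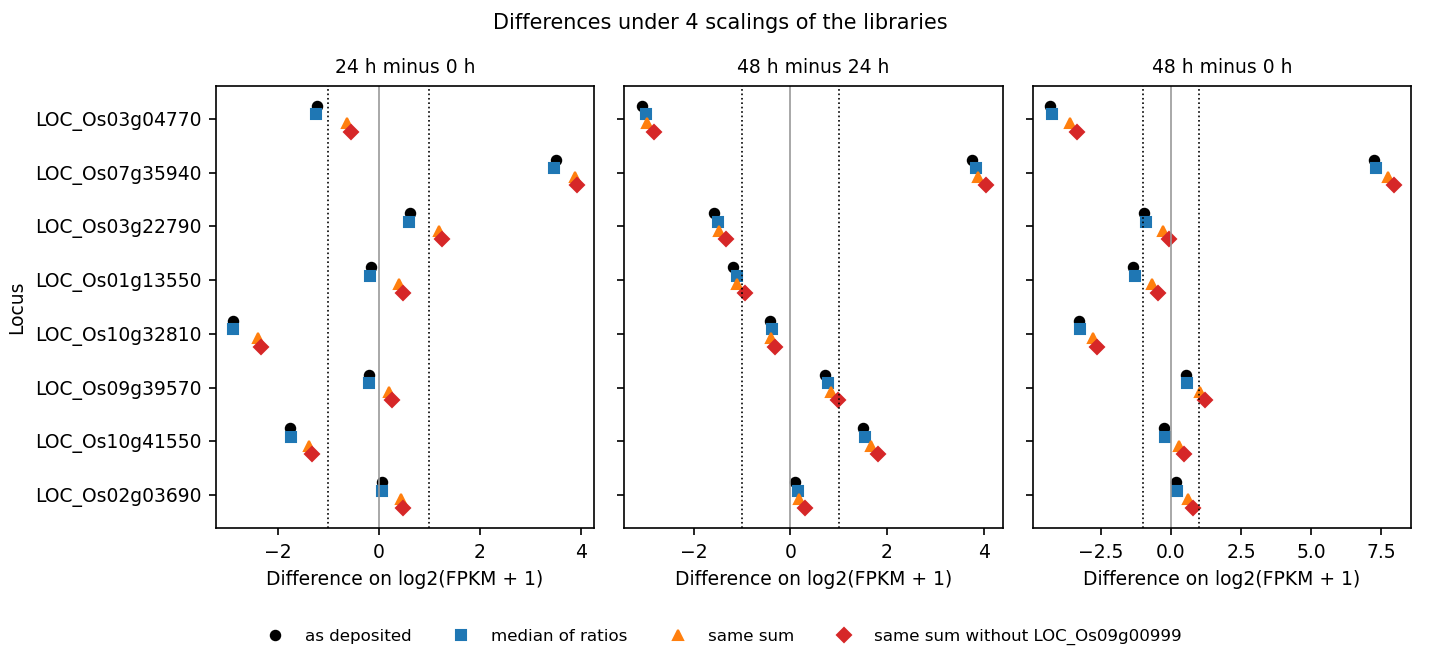
Difference on log2(FPKM + 1) of the 8 tested β-amylase loci (rows) in the 3 comparisons (panels), with the libraries as deposited and under 3 rescalings (symbols); dotted lines mark 2-fold. LOC_Os07g35940 stays between 7.25 and 7.96 for 48 h minus 0 h, whereas LOC_Os10g41550 moves from -0.26 as deposited to 0.29 at the same sum.

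Read over both steps in the values as deposited, the 8 tested loci took 6 different courses. LOC_Os07g35940 was at least 2-fold higher at each step, as were 2.44% of all loci tested. LOC_Os03g04770 was at least 2-fold lower at each step, as were 3.35%. LOC_Os10g32810 was lower at the first step only, a course of 10.8% of loci, and LOC_Os10g41550 was lower and then higher, a course of 1.24%. LOC_Os01g13550 and LOC_Os03g22790 were lower at the second step only, as were 4.92%. LOC_Os02g03690 and LOC_Os09g39570 passed 2-fold at neither step, as did 51.9% of loci. With libraries rescaled to the same sum, LOC_Os03g04770 was not called at the first step, with -0.64. On that scale LOC_Os03g22790 was higher and then lower, with 1.18 and -1.48. The other tested members kept their courses there, and the shares of all loci were not counted.

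LOC_Os02g03690 was at 1.68, 1.81 and 2.0 FPKM at 0, 24 and 48 h, so that its highest value was 1.19 times its lowest as deposited. With libraries rescaled to the same sum it was 1.96 times its lowest, and 2.32 times without LOC_Os09g00999. The remaining 2 members were under 1 FPKM in all 3 libraries and were not tested. LOC_Os07g35880 was at 0.11, 0.11 and 0.01 FPKM at 0, 24 and 48 h. LOC_Os07g47120 was listed at 0 in the dry and the germinated seed, with 0.02 FPKM at 24 h. Without read totals, no lower limit of detection can be given for either.

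LOC_Os07g35940 and LOC_Os10g32810 changed place most in the order of levels, the one upward and the other downward. In the dry seed LOC_Os03g04770 was followed by LOC_Os03g22790, LOC_Os01g13550 and LOC_Os10g32810, all 4 at 10 FPKM or more, and LOC_Os07g35940 was the lowest of the 8 tested members. At 24 h the 4 members at 10 FPKM or more were LOC_Os03g04770, LOC_Os03g22790, LOC_Os07g35940 and LOC_Os01g13550. At 48 h only 3 members, LOC_Os07g35940, LOC_Os03g04770 and LOC_Os03g22790, were at that level, and LOC_Os10g32810 was the lowest of the 8 tested. LOC_Os03g22790 stayed above LOC_Os01g13550 at every stage, by 1.19 times at 0 h, 2.08 times at 24 h and 1.62 times at 48 h. At 24 h LOC_Os09g39570 with 1.82 FPKM and LOC_Os02g03690 with 1.81 FPKM differed by 0.01 FPKM, the last digit of the deposited values. How far any such neighbours differ beyond replicate error cannot be said from single libraries.

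The 3 members on chromosome 7 did not share a level. LOC_Os07g35940 and LOC_Os07g35880 are close in ID order, with 1 other locus listed between them, LOC_Os07g35920, which is no member. LOC_Os07g35920, which has 4 isoforms in the tables, was at 1.36, 1.01 and 2.44 FPKM at 0, 24 and 48 h. The high values at 24 and 48 h were therefore seen in LOC_Os07g35940 but not in the next loci listed before it. The 2 members on chromosome 3, LOC_Os03g04770 and LOC_Os03g22790, and the 2 on chromosome 10, LOC_Os10g32810 and LOC_Os10g41550, are far apart in ID order. If near-identical copies exist among the members, the division of shared reads between them could move values from one to another, which the deposited values do not show.

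By level and course together, few loci lay near LOC_Os07g35940, although 2.44% of all loci tested were at least 2-fold higher at each step. Likeness was measured as the Euclidean distance between log2(FPKM + 1) values over the 3 libraries, among all 20915 loci tested. Only 1 locus lay within a distance of 1, LOC_Os10g31460, at 0.92, with 0.39, 26.4 and 209 FPKM at 0, 24 and 48 h. The next were LOC_Os03g52860 at a distance of 1.14, with 2.13, 15.1 and 573 FPKM, and LOC_Os02g52710 at 1.18, with 0.09, 21.5 and 210 FPKM at 0, 24 and 48 h. Around LOC_Os03g04770, 12 loci lay within a distance of 1. The closest was LOC_Os05g34830 at 0.41, with 348, 145 and 23.1 FPKM at 0, 24 and 48 h, followed by LOC_Os03g56540 at 0.48 and LOC_Os01g47262 at 0.50. LOC_Os02g52710 is also on the list of other starch-breaking loci used below, whose IDs are not annotated here. A likeness over 3 libraries rests on 3 values per locus. Near LOC_Os07g35940 it also rests on low dry-seed values, with 0.39 FPKM for LOC_Os10g31460 and 0.09 FPKM for LOC_Os02g52710. How many loci lie within a distance of 1 of other loci with such large differences was not counted. The small number around LOC_Os07g35940 can therefore not be read as particular to it.

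β-Amylase loci were set beside 21 other loci held, from general knowledge, to encode starch-breaking enzymes and their partners (α-amylases, debranching enzymes, phosphorylases, glucan kinases and phosphatase, disproportionating enzymes, α-glucosidase and the plastid maltose transporter). The sources used here do not annotate these IDs either, so they are given as a list only. Their summed level was 429, 1159 and 1547 FPKM at 0, 24 and 48 h, beside 469, 249 and 373 FPKM for the 10 β-amylase loci. At 48 h against 0 h, 9 of the 21 were called higher and 5 lower, with a median log2 difference as deposited of 0.75. The median was 0.18 for all loci tested and -0.20 for the 10 β-amylase loci. The last includes 2 members not tested, at -0.14 and 0. The middle values of the 8 tested members were -0.97 and -0.26. Of all loci tested, 27.5% were higher and 20.4% lower in that comparison. All values for the 21 loci are as deposited. They were not read at the same sum, where the median of all loci tested was itself 0.75 for 48 h against 0 h. At 24 h against 0 h, 6 of the 21 were higher and 7 lower, beside 17.7% and 15.4% of all loci tested. At 48 h against 24 h, 9 of the 21 were higher and 2 lower, beside 13.8% and 10.9% of all loci tested. LOC_Os07g35940, at 328 FPKM at 48 h, lay near the top of the range of these 21 loci, whose median was 17.4 FPKM and whose highest was at 431 FPKM. The largest log2 difference within the list was 6.83 at 24 h against 0 h, 3.23 at 48 h against 24 h and 7.60 at 48 h against 0 h. In the same comparisons LOC_Os07g35940 was at 3.50, 3.75 and 7.25.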

How the data were processed

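Poly(A)-selected RNA of whole rice seeds was sequenced as 1 library for each of 3 imbibition times. Per the series design text, each library combined 3 biological replicates. The authors deposited FPKM values to 2 decimals for 66338 isoforms, and per the file headers these come from isoform-level results. The submitters' processing notes list FastQC, RSEM 1.1.11 and edgeR 2.3.52 but no roles. The aligner, the genome build and the annotation release were not stated there, and the read totals are unknown, so no coordinates, intervals or detection limits are given. RSEM-type estimates divide reads shared between similar transcripts, and FPKM depends on the library's total.

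From the FPKM, isoforms were summed per locus ID. Loci reaching 1 FPKM in any library were kept, and differences were taken on log2(FPKM + 1), which understates those of low loci. With 1 library per time there was no test; the size rule was 2-fold. The members and lists were chosen with earlier results of these data known. Named loci are all 10 members, the 3 loci closest in profile to each of the 2 members with the highest mean FPKM, and the locus between a pair of members in ID order. LOC_Os09g00999 is named outside this rule, as the most abundant locus, which earlier results of these data had shown. Of 39387 genes in the reference table of assembly ASM3414082v1, none matched a member ID. Of the list of other starch-breaking loci, 1 locus was not analysed here. Alternatives were pseudocounts of 0.1 and 5 FPKM, no filter, a filter of 5 FPKM, a 4-fold rule, 3 rescalings, and the main isoform alone. The same-sum rescalings kept the mean sum of the 3 libraries; their multipliers at 0, 24 and 48 h were 0.755, 1.15 and 1.24, or 0.712, 1.14 and 1.39 without LOC_Os09g00999, and median-of-ratios multipliers were 0.986, 0.976 and 1.04. Work used Python 3.11.15, numpy 2.4.6, pandas 2.3.3 and matplotlib 3.10.9.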

Additional observations from a re-analysis of the deposited data

How the results depend on the processing

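With nothing to leave out among replicates, no leave-one-out value exists. No paired analysis was possible because a stage has a single pooled library. Of 54 alternative counts of β-amylase loci called, 45 stayed within 1.5 times the reported count. Counts with the main isoform alone could not differ, as each member has 1 isoform. Those without a filter could not either, as the members it adds stay under 1 FPKM. At 48 h against 24 h, 1 locus was higher with a pseudocount of 5 FPKM, a filter of 5 FPKM or the 4-fold rule. The 4-fold rule also left 1 lower at 24 h against 0 h and 1 lower at 48 h against 24 h. Both same-sum rescalings gave 2 higher at 24 h against 0 h and 2 at 48 h against 0 h. The family's log2 ratio for 48 h over 0 h was -0.33 as deposited and reversed to 0.39 at the same sum and 0.64 without LOC_Os09g00999. With median-of-ratios factors this ratio was -0.25. The family's sum at 0, 24 and 48 h was 354, 286 and 464 FPKM at the same sum, 334, 285 and 518 FPKM without LOC_Os09g00999, and 462, 244 and 389 FPKM with median-of-ratios factors. Of 207 alternative log2 differences of single members, 182 kept their direction and side of the limit. Another 14 fell under the limit, 5 passed it and 6 reversed. The limit was 2-fold, or 4-fold under the 4-fold rule, where some unchanged values past 2-fold count among the 14. The filter settings, the 4-fold rule and the main isoform alone leave each member's log2 difference as it was. Much of this agreement was therefore fixed in advance. The reversals, none past 2-fold, were LOC_Os01g13550 (0.40 and 0.48) and LOC_Os09g39570 (0.20 and 0.25) at 24 h against 0 h, and LOC_Os10g41550 (0.29 and 0.48) at 48 h against 0 h, each at the same sum and without LOC_Os09g00999; the scaling itself raises 24 h and 48 h against 0 h. The share of all loci tested called higher ranged over the alternatives from 5.76% to 29.3% at 24 h against 0 h, 3.19% to 20.6% at 48 h against 24 h and 10.3% to 47.3% at 48 h against 0 h, and the share called lower from 4.53% to 20.6%, 1.98% to 15.7% and 7.62% to 26.4%. The lowest shares for 24 h against 0 h and 48 h against 24 h came from the 4-fold rule. For 48 h against 0 h they came from the setting without a filter, where shares are of all 55986 loci. LOC_Os07g35940 kept its calls under every alternative tried, and its place for 48 h against 0 h lay between 11th and 44th from the top. Without read totals, the counting error of low members is unknown.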
